A study of Homo sapiens with 4 samples.

Results

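Lysosomes break down proteins, glycans, sulfated sugars and lipids at acid pH. The hydrolases that do this are made in the endoplasmic reticulum, tagged with mannose 6-phosphate in the Golgi and carried to the lysosome, whose membrane is lined by heavily glycosylated proteins and acidified by the V-ATPase proton pump. Many of the genes share a short E-box in their promoters that is bound by TFEB, TFE3 and MITF, and when mTORC1 is inactive these factors move to the nucleus and raise the set together. Myeloid precursors make, besides lysosomal hydrolases, the proteases and peroxidase of the azurophil granule.

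The genes described here are 44 genes of lysosomal hydrolases, their carriers, membrane proteins and the 3 MiT/TFE factors, taken by symbol from the 60662 genes of the deposited table, which held all 44. RNA had been sequenced from NB4 cells, a human acute promyelocytic leukemia line that carries PML-RARα, transduced with a control vector (2 libraries) or with a vector for JMJD3 (2 libraries). JMJD3 (gene symbol KDM6B) is a demethylase of trimethylated lysine 27 of histone H3, and the comparison asks what its overexpression does to the transcripts of these cells. The libraries held 39078443 and 40768225 estimated counts in vector libraries 1 and 2, and 35176388 and 34704909 in JMJD3 libraries 1 and 2. Values are given as CPM, counts scaled to a common library size with TMM. It is not stated whether replicates were transduced separately, and all come from this 1 line. Lane 20 held vector library 1, and lane 17 the remaining 3 libraries.

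KDM6B (ENSG00000132510; chromosome 17 from 7737535 to 7758114 of GRCh37) was at 15.8 and 13.7 CPM in vector libraries 1 and 2, and at 37.9 and 44.1 CPM in JMJD3 libraries 1 and 2. Both JMJD3 libraries were thus above both vector libraries, as labelled. The log2 fold change was 1.48 (standard error 0.13, adjusted p = 0.00114 by edgeR's quasi-likelihood test with Benjamini-Hochberg adjustment over all genes tested). Transcripts from the vector and from the endogenous gene are counted together.

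Of the 44 genes, 40 passed the filter on low counts and were tested, each with at least 10 counts in a library of each group. At an adjusted p under 0.05 by edgeR's quasi-likelihood test, 16 of the 40 were higher and 6 lower in JMJD3 cells, that is 40% and 15%, beside 21.6% higher and 19.1% lower of the 15246 genes tested. Leaving out 1 library at a time gave 9 to 19 higher and 0 to 12 lower. The median log2 fold change of the 40 was 0.19, beside 0.04 over all genes tested, and 0.11 to 0.23 with a library left out. With a change of at least 2-fold required as well, 3 members were higher and 0 lower, the largest fall among the 40 being -0.70 on the log2 scale, against 7.55% and 2.82% of all genes tested. IDS, at a log2 fold change of 1.27, was the nearest above that limit, and TFEB and TPP1, at 1.00 and 0.98, were the nearest below it. The summed level of all 44 genes was 3425 and 3608 CPM in the vector libraries and 3816 and 3775 CPM in the JMJD3 libraries. In these bulk samples fewer cells of a type and less RNA per cell cannot be told apart.

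The 22 genes that passed the test fell on both sides within several roles. Among the hydrolases 11 of 27 tested were higher and 4 lower (40.7% and 14.8%, beside 21.6% and 19.1% of all genes tested), with a median log2 fold change of 0.14. They were 6 and 1 without JMJD3 library 1, 6 and 0 without JMJD3 library 2, and 11 and 9, with a median of 0.07, without vector library 1. The CPM of the groups did not overlap in 35 of the 40, the 22 called and 13 of the 18 not called, beside 74.4% of all genes tested, so that separation of the groups in 2 against 2 libraries was common. TPP1, GAA, FUCA1, IDS, ARSA and GRN kept their calls at an adjusted p under 0.05, all higher, in each of 14 alternative fits, those without 1 of the libraries included. Of these 6 genes GAA, FUCA1 and IDS also passed the 2-fold limit, and TPP1, ARSA and GRN did not. The other 16 calls were lost or changed direction in at least 1 of the fits.

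**Figure D1:**
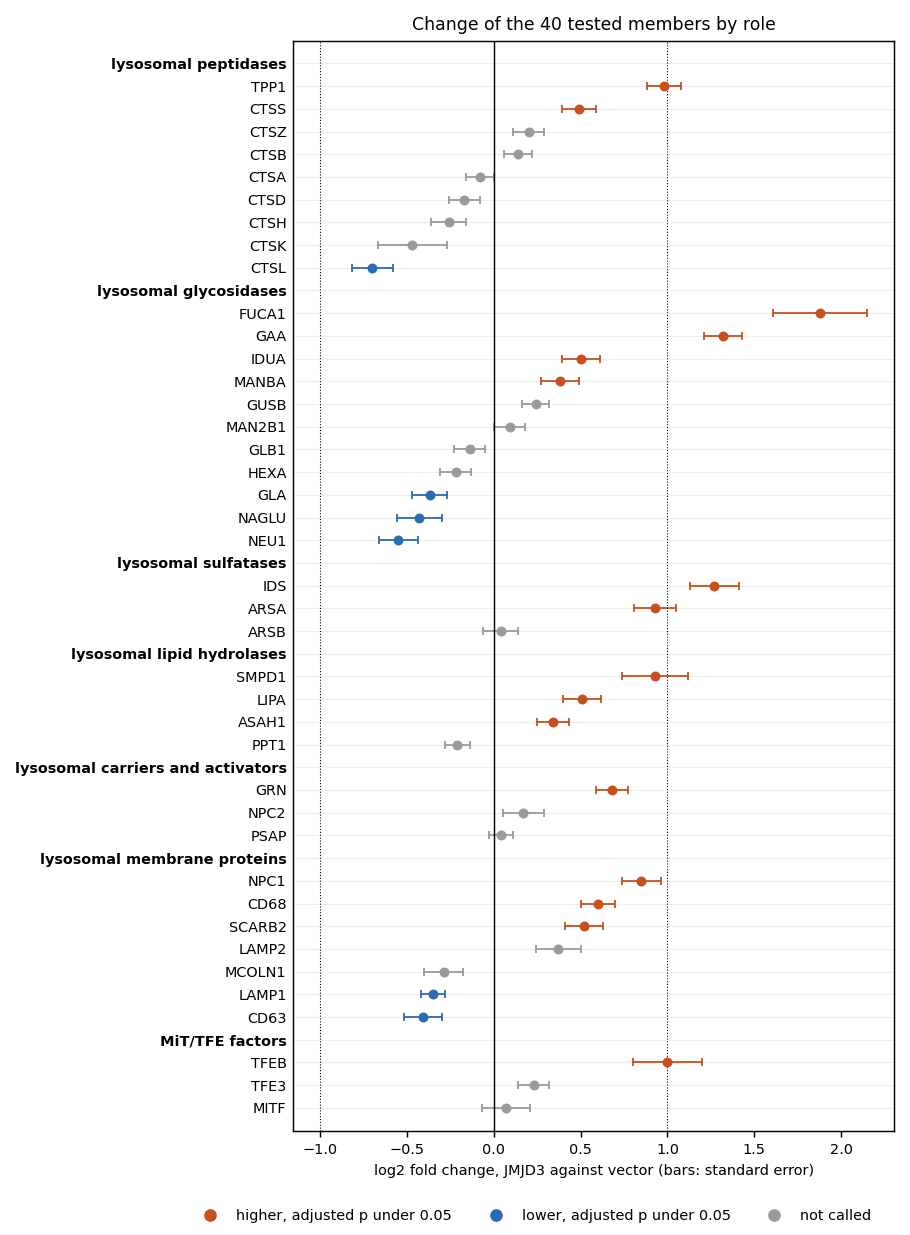
Log2 fold change of the 40 tested members between JMJD3 and vector cells, grouped by role. Points are estimates from edgeR with bars of 1 standard error, orange where higher and blue where lower with an adjusted p under 0.05, grey for not called, and dotted lines mark a 2-fold change. FUCA1, GAA and IDS lie beyond the upper 2-fold line, and no member lies beyond the lower one.

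Of 9 peptidases tested 2 were higher and 1 lower, or 22.2% and 11.1%, beside 21.6% and 19.1% of all genes tested, and 1 was higher without either JMJD3 library and 3 lower without vector library 1. TPP1, which cuts tripeptides from the ends of proteins and is lost in a childhood form of neuronal ceroid lipofuscinosis, was at 94.0 and 79.0 CPM in the vector libraries and at 166 and 175 CPM in the JMJD3 libraries. The JMJD3 libraries were close to each other and both well above the vector libraries. Its log2 fold change was 0.98 (standard error 0.10, adjusted p = 0.00182 by edgeR's quasi-likelihood test). CTSS, a cysteine protease that trims the invariant chain of MHC class II, was at 32.6 and 33.4 CPM against 47.0 and 45.6 CPM. It rose by a log2 fold change of 0.49 (standard error 0.10), with each group within a narrow range, a call that was lost with limma on log2(FPKM + 0.1) and without either JMJD3 library.

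CTSL, a broad endopeptidase of the same papain family, moved the other way, from 12.7 and 13.6 CPM to 8.64 and 7.61 CPM. It fell by 0.70 on the log2 scale (standard error 0.12, adjusted p = 0.00659 by edgeR's quasi-likelihood test), and the groups did not overlap. Without JMJD3 library 2 the change of CTSL no longer passed the threshold. The major aspartic protease CTSD and the cysteine proteases CTSB, CTSH and CTSZ, together with the carboxypeptidase CTSA, had log2 fold changes between -0.26 and 0.20 and were not called. CTSK, a collagenase best known from osteoclasts, was at 1.32 to 2.02 CPM over the 4 libraries and was not called either. Of the exon bases of CTSZ 31.7% lie opposite NELFCD on the other strand, and the library kit did not mark strand, so that reads of these genes could not be separated there. CTSD shares 27.3% of its exon bases with genes on its own strand and 24.0% with genes on the other. CTSO had 0 counts in every library, CTSF at most 1 and LGMN at most 2. A count of 0 allows up to 3 counts, or between 0.0786 and 0.081 CPM, for counting error alone.

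The glycosidases, which remove sugars from glycans, glycogen and glycolipids, had 4 genes higher and 3 lower of 11 tested (36.4% and 27.3%, against 21.6% and 19.1% over all genes), and 2 higher and 0 lower without either JMJD3 library. GAA, the acid glucosidase that degrades glycogen and is deficient in Pompe disease, lies on chromosome 17 from 78075332 to 78093680 (GRCh37). It was at 30.0 and 35.3 CPM in the vector libraries and at 81.7 and 80.8 CPM in the JMJD3 libraries. The separation of the groups was many times the difference between replicates, and the log2 fold change was 1.32 (standard error 0.11, adjusted p = 0.00105 by edgeR's quasi-likelihood test).

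FUCA1, the fucosidase lost in fucosidosis (chromosome 1 from 24171567 to 24194780, GRCh37), changed most among the members but from a low level. It had 15 and 22 counts in the vector libraries and 64 and 71 in the JMJD3 libraries, or 0.405 and 0.576 against 1.73 and 1.92 CPM. Few counts in vector cells gave it the widest error of the 40, with a log2 fold change of 1.88 and a standard error of 0.27 (adjusted p = 0.00351 by edgeR's quasi-likelihood test). IDUA, which acts on dermatan and heparan sulfate, and MANBA, a mannosidase, rose less, by log2 fold changes of 0.50 and 0.38. Both lost their calls with limma on either FPKM scale and without either JMJD3 library, MANBA being called in 8 of the 14 alternative fits and IDUA in 10, and 13.2% of the exon bases of IDUA lie opposite SLC26A1.

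NEU1, the lysosomal sialidase, which works in a complex with CTSA and GLB1, was at 21.6 and 23.2 CPM against 14.7 and 15.9 CPM. It fell by 0.55 on the log2 scale (standard error 0.11, adjusted p = 0.00893 by edgeR's quasi-likelihood test), while its partners GLB1 and CTSA had log2 fold changes of -0.14 and -0.08 and were not called. GLA, the galactosidase deficient in Fabry disease, and NAGLU, which acts on heparan sulfate, fell by 0.37 and 0.43 on the log2 scale. Of the exon bases of GLA 9.0% lie opposite RPL36A, and NAGLU shares 12.9% with a long noncoding gene on its own strand. Both lost their calls with upper quartile scaling, with limma on log2(FPKM + 0.1), with no filter on low counts and without either JMJD3 library, and GLA was called in 7 of the 14 fits. NEU1 lost its call with limma on log2(FPKM + 0.1) and without either JMJD3 library. HEXA, GUSB and MAN2B1 were not called, at log2 fold changes of -0.22, 0.24 and 0.09, but GUSB was called with upper quartile scaling, with at least 10 counts in every library and without vector library 2. GUSB has transcribed pseudogene copies such as GUSBP1 (566, 555, 583 and 554 counts, in the order vector 1 and 2, JMJD3 1 and 2), between which an estimated count may divide reads.

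Of the sulfatases, which remove sulfate from glycosaminoglycans and sulfatides, 2 of 3 tested rose, where 21.6% of all genes did, and both were called in every fit. IDS, deficient in Hunter syndrome (chromosome X from 148558519 to 148602635, GRCh37), was at 22.8 and 17.3 CPM in the vector libraries and at 48.4 and 48.1 CPM in the JMJD3 libraries. The vector libraries differed from each other more than the JMJD3 libraries did, and lay well below them. Its log2 fold change was 1.27 (standard error 0.14, adjusted p = 0.00205 by edgeR's quasi-likelihood test). ARSA, the arylsulfatase that acts on sulfatides of myelin, went from 6.99 and 7.73 CPM to 13.7 and 14.3 CPM, a log2 fold change of 0.93 (standard error 0.12). ARSB, which acts on dermatan and chondroitin sulfate, had overlapping groups and a log2 fold change of 0.04, and SGSH had 0 counts in every library.

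The lipid hydrolases had 3 of 4 genes higher, beside 21.6% of all genes tested, and 1 without either JMJD3 library or with limma on log2(FPKM + 0.1). SMPD1, the acid sphingomyelinase deficient in Niemann-Pick disease, was at 1.94 and 2.67 CPM against 4.51 and 4.32 CPM, and rose by a log2 fold change of 0.93 (standard error 0.19). LIPA, which frees cholesterol from its esters, was at 35.7 and 31.8 CPM against 46.5 and 49.4 CPM, and rose by 0.51 (standard error 0.11) on the log2 scale. In both genes the groups stood apart by more than the replicates of a group differed, but SMPD1 was not called with limma on log2(FPKM + 0.1), nor LIPA without either JMJD3 library. ASAH1, the acid ceramidase, rose by a log2 fold change of 0.34, which was 0.09 with limma on log2(FPKM + 1), and it was called in 8 of the 14 alternative fits. PPT1, which removes palmitate from proteins, was not called, with a log2 change of -0.21 (adjusted p = 0.061 by edgeR's quasi-likelihood test), but was with DESeq2 size factors.

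Among the carriers and activators, GRN, the precursor of the granulins, was at 244 and 279 CPM in the vector libraries and at 423 and 415 CPM in the JMJD3 libraries. It rose by a log2 change of 0.68 (standard error 0.09, adjusted p = 0.00262 by edgeR's quasi-likelihood test). PSAP, the precursor of the saposins that present lipids to hydrolases and a binding partner of progranulin, was at 386 and 410 CPM against 410 and 406 CPM. The groups of PSAP overlapped, and its log2 fold change was 0.04 (standard error 0.07). NPC2, which passes cholesterol to NPC1 inside the lysosome, had overlapping groups as well, at a log2 fold change of 0.17.

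The membrane proteins had 3 genes higher and 2 lower of 7 tested, where all genes had 21.6% and 19.1%. They had 1 and 0 without JMJD3 library 1, 2 and 0 without JMJD3 library 2, and 2 and 2 with CD68 summed with its overlapping gene. LAMP1, with LAMP2 the most abundant glycoprotein of the lysosomal membrane, was at 443 and 447 CPM in the vector libraries and at 346 and 351 CPM in the JMJD3 libraries. Replicates of LAMP1 were close in both groups, and it fell by 0.35 on the log2 scale (standard error 0.07, adjusted p = 0.00913 by edgeR's quasi-likelihood test). LAMP2, which serves chaperone-mediated autophagy and the fusion of autophagosomes, was at 173 and 136 CPM against 189 and 209 CPM. It lay on the other side of 0, with a log2 fold change of 0.37 (standard error 0.13), and missed the threshold (adjusted p = 0.0567 by edgeR's quasi-likelihood test), but LAMP2 was called with upper quartile scaling, the DESeq2 Wald test, the replicate block and without vector library 1. CD63, a tetraspanin of late endosomes and granules, was at 113 and 133 CPM against 97.3 and 88.2 CPM, and fell by 0.41 on the log2 scale. The calls of LAMP1 and CD63 were lost with limma on log2(FPKM + 0.1) and without either JMJD3 library, and that of CD63 also with no filter on low counts.

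NPC1, the transporter that exports cholesterol from the lysosome, was at 13.8 and 12.3 CPM against 22.9 and 24.1 CPM. It rose by a log2 change of 0.85 (standard error 0.11, adjusted p = 0.00275 by edgeR's quasi-likelihood test), and was not called with limma on log2(FPKM + 0.1). SCARB2, the receptor that carries glucocerebrosidase to the lysosome, rose by 0.52 on the log2 scale, a call that was lost with that scale and without either JMJD3 library. MCOLN1, a calcium channel that TFEB controls and that in turn helps to activate it, was not called, at a log2 fold change of -0.29.

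CD68, a glycoprotein used as a marker of macrophages, was at 14 and 14.3 CPM in the vector libraries and at 22.2 and 20.7 CPM in the JMJD3 libraries, a log2 change of 0.60 (standard error 0.10, adjusted p = 0.00611 by edgeR's quasi-likelihood test). However, 81.6% of its exon bases also belong to a long noncoding gene on the same strand, RP11-186B7.4 (ENSG00000264772), between which an estimated count has to divide reads. That gene had 560 and 603 counts in the vector libraries and 273 and 208 in the JMJD3 libraries, and it fell by 1.25 on the log2 scale (standard error 0.15). With the counts of both genes summed, the levels were 29.1 and 30.1 CPM against 29.6 and 26.3 CPM. The groups then overlapped, and the log2 fold change was -0.08 (standard error 0.11, adjusted p = 0.567 by edgeR's quasi-likelihood test). Whether CD68 rose while the other gene fell, or reads were divided differently between them, was not tested.

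IDS shares 75.0% of its exon bases with AF011889.5 (ENSG00000241489) on the same strand, and was treated in the same way. That gene had 49 and 28 counts against 108 and 130, far fewer than IDS. Summed, the log2 fold change was 1.29 (standard error 0.15), close to that of IDS alone. The sums were added after the values were seen.

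**Figure D2:**
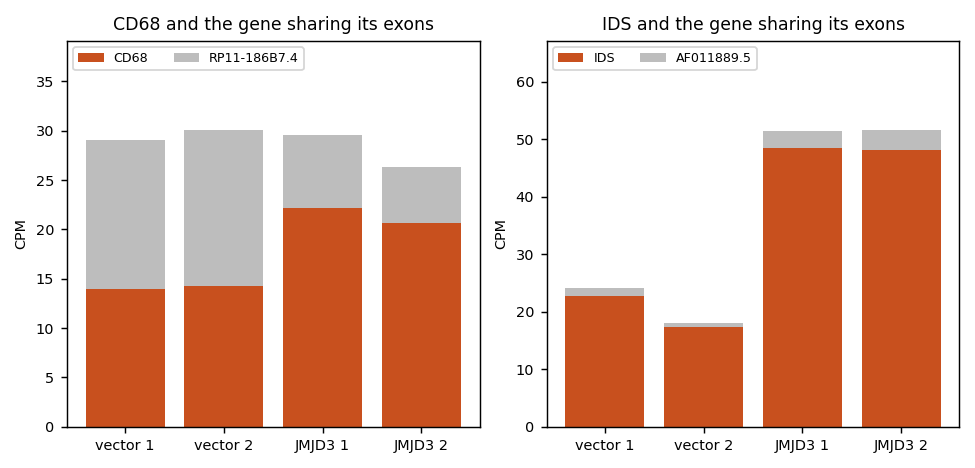
CPM of CD68 and IDS (orange) with the gene that shares most of their exon bases stacked on top (grey), in each of the 4 libraries. The stacked height for CD68 lies between 26.3 and 30.1 CPM in all 4 libraries, while that for IDS is 24.1 and 18.0 CPM in vector and 51.3 and 51.7 CPM in JMJD3 libraries.

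Of the 3 transcription factors of the family TFEB alone was called, or 33.3% higher, beside 21.6% of all genes tested. Differences between the 3 were not tested. TFEB was at 1.46 and 1.31 CPM in the vector libraries and at 2.54 and 3 CPM in the JMJD3 libraries, from 54 and 50 against 94 and 111 counts. All of these are low levels, with the JMJD3 libraries above the vector libraries. The log2 fold change was 1.00 (standard error 0.20, adjusted p = 0.00919 by edgeR's quasi-likelihood test), and it was 0.39 with limma on log2(FPKM + 1), where the gene was not called, as with limma on log2(FPKM + 0.1) and without JMJD3 library 2. TFE3 was at 42.2 and 43.9 CPM against 50.3 and 51.0 CPM, which did not pass the threshold (log2 fold change 0.23, adjusted p = 0.0816 by edgeR's quasi-likelihood test) but did without vector library 2. MITF, the regulator of melanocytes and osteoclasts, had overlapping groups and a log2 fold change of 0.07. Transcript levels do not measure where these factors lie in the cell.

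Levels of different genes were compared on the deposited FPKM, which is per length. In vector cells the highest mean FPKM among the members were those of LAMP1 (183), CTSH (178), CD63 (169), PSAP (157) and GRN (154). In JMJD3 cells GRN had the highest, 248, and LAMP1 was at 143. The lowest of those tested was FUCA1, with a mean FPKM of 0.276 in vector and 1.01 in JMJD3 cells, and TFEB was at 0.908 and 1.5, against 14.5 and 16.4 for TFE3. FUCA1, TFEB, SMPD1 and ARSA, which rose by more than most, were at a mean FPKM of at most 5.38 in vector cells, but GAA and TPP1 rose from 18.4 and 35.1. The abundant LAMP1 and CD63 fell, and of the 5 most abundant genes GRN alone rose.

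**Figure D3:**
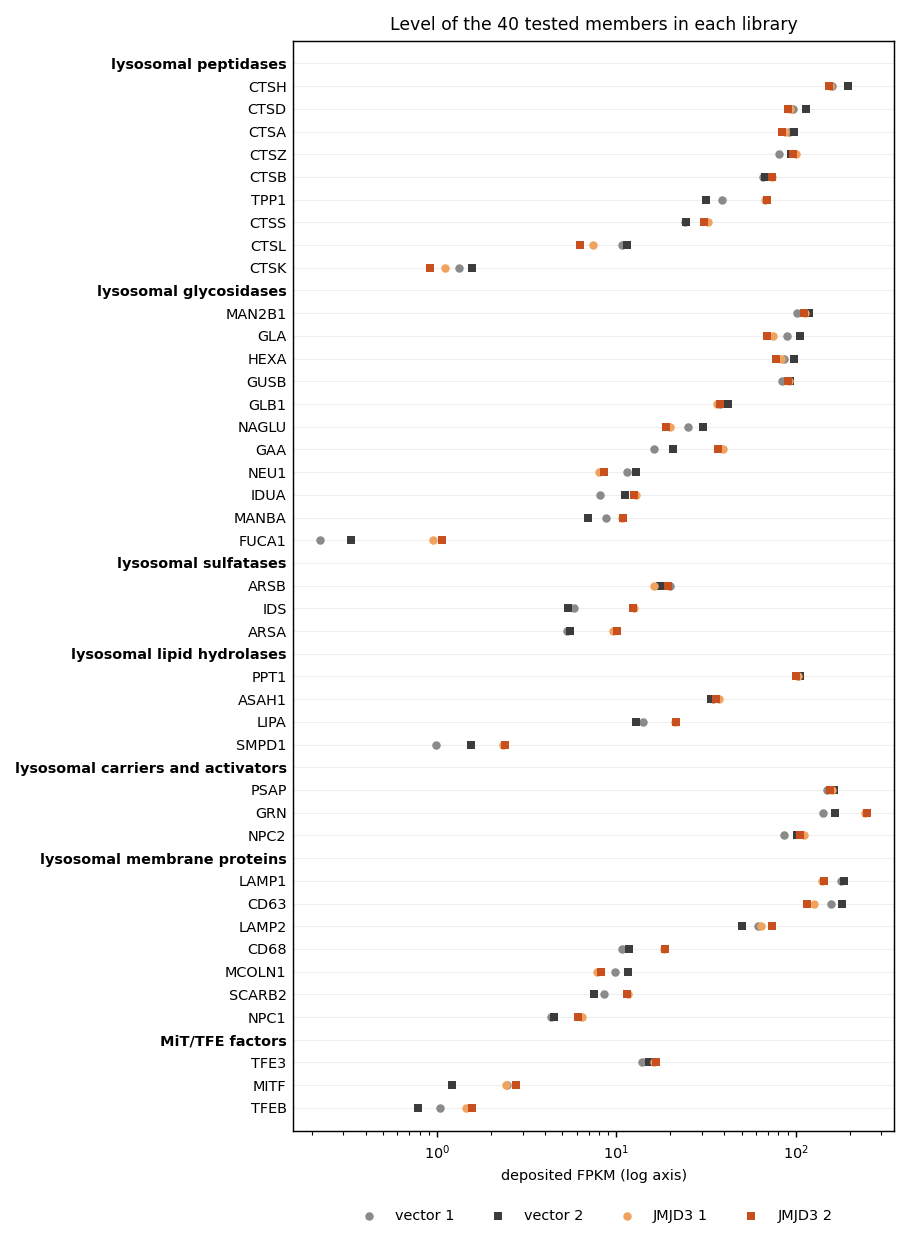
Deposited FPKM of the 40 tested members in each library on a log axis, grouped by role and ordered by the mean in vector cells. Grey and black points are vector libraries 1 and 2, and light and dark orange points JMJD3 libraries 1 and 2. Levels span from 0.223 for FUCA1 in vector library 1 to 250 for GRN in JMJD3 library 2.

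Promoter windows were looked at because the E-box bound by MiT/TFE factors is a known shared feature of these genes. The choice of members did not use it. Since the motif is known from lysosomal genes, its share among the members is no independent observation. Windows of 300 bases, 250 before and 50 after an annotated start, came from RefSeq (GRCh38.p14) and were found for 31 of the 44 members by symbol. Those of CTSB, CTSK, CTSS, CTSO, LGMN, HEXA, MANBA, NAGLU, ARSA, SGSH, ASAH1, PSAP and LAMP2 are missing from the table. The palindrome CACGTG was present in at least 1 window of 9 of the 31 members (29.0%), beside 8.77% of all 27305 symbols with a window. The longer GTCACGTG, searched on both strands and always containing the shorter motif, was present in 6 members (19.4%), beside 2.93% of all symbols. CACGTG was found in 1 of 12 higher members, GAA, in 3 of 5 lower members, NEU1, LAMP1 and CD63, in 4 of 13 not called, CTSA, CTSD, ARSB and MCOLN1, and in CTSF, which was not tested. Hence the windows of FUCA1, IDS and TPP1, which rose, did not hold these letters. The number of windows differed, with 17 for the 12 higher, 12 for the 5 lower and 17 for the 13 members not called. The 31 members had 47 windows and all 27305 symbols 35116, so shares by symbol are not like for like. CD63 alone had 8. A match describes the sequence and does not show binding, and a missing match says no more than that the letters are absent from these windows.

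The stretches around the motifs of the called genes, and of CTSA and MCOLN1, which hold a pair each, show how they are arranged before the start. Capitals mark CACGTG together with the bases that extend it to GTCACGTG on either strand. Those of GAA lie at chr17:80101493-80101522 and chr17:80101538-80101567 on the plus strand, and those of LAMP1 at chr13:113297035-113297114 and chr13:113297199-113297228 on the plus strand. NEU1 is shown at chr6:31862930-31862959 and CD63 at chr12:55729172-55729201, both on the minus strand. CTSA is shown at chr20:45891281-45891327 and MCOLN1 at chr19:7522571-7522623, both on the plus strand (all GRCh38.p14).
GAA, 88 to 59 bases before the start: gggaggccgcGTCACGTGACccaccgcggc
GAA, 43 to 14 bases before the start: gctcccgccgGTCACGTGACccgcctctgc
LAMP1, 204 to 125 bases before the start: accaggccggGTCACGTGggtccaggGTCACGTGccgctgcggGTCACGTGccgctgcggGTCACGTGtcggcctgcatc
LAMP1, 40 to 11 bases before the start: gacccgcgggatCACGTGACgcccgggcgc
NEU1, 138 to 109 bases before the start: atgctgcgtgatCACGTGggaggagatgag
CD63, 192 to 163 bases before the start: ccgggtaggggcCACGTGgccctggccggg
CTSA, 54 to 8 bases before the start: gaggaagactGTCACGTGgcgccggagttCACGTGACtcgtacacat
MCOLN1, 53 to 1 bases before the start: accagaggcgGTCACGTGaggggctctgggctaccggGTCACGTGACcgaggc

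LAMP1 had 6 copies of CACGTG, each within the longer motif, of which the last reaches over the start and is not shown. GAA had 2 copies in a window of the same kind. Of these genes, LAMP1 fell and GAA rose, with the values given above.

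**Figure D4:**
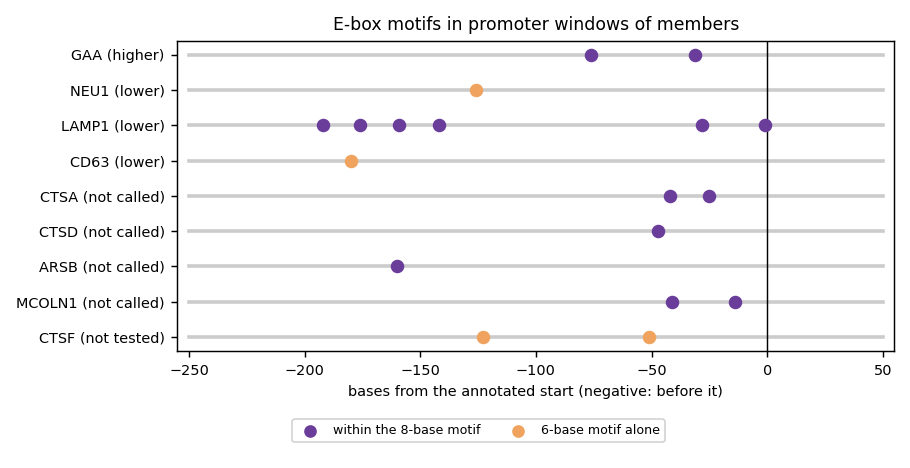
Place of CACGTG in the promoter windows of the 9 members that hold it, in bases from the annotated start, with the call of each gene in brackets. Purple points are copies within GTCACGTG on either strand and orange points are copies of the shorter motif alone, and LAMP1 has the most copies, 6.

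Other genes linked to the lysosome were taken from lists that do not contain the members, and described by the same fit. A place in a list does not show that the protein lies in the lysosome. Of 30 other hydrolases and cofactors tested, 11 were higher and 5 lower (36.7% and 16.7%, beside 21.6% and 19.1% of all genes tested), with a median log2 fold change of 0.20, near that of the members. Without either JMJD3 library they were 5 and 1, and without vector library 1 they were 12 and 8. The largest rises were those of CTSW, a papain-like protease known from cytotoxic lymphocytes, by a log2 fold change of 3.02 (4.05 and 4.48 against 36.3 and 33.1 CPM), of CTSE by 1.73 and of the sulfatase ARSG by 1.37. PLA2G15, a lysosomal phospholipase, fell by 1.64 on the log2 scale, from 4.53 and 6.26 CPM to 1.59 and 1.86 CPM. CTSC, the dipeptidyl peptidase that activates granule proteases, was at 566 and 555 CPM against 438 and 421 CPM and fell by 0.38. CTSE rests on low levels, between 0.236 and 1.57 CPM, and lost its call with no filter on low counts. Limma on log2(FPKM + 0.1) ended the calls of CTSE, ARSG, PLA2G15 and CTSC, and limma on log2(FPKM + 1) those of PLA2G15 and CTSC. CTSC was also not called without either JMJD3 library.

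Of 23 other membrane proteins and transporters tested, 7 were higher and 3 lower (30.4% and 13%, beside the same 21.6% and 19.1%), with a median of 0.23. Without either JMJD3 library 5 were higher and 1 lower. SLC11A1, a metal transporter of phagosomes, TMEM106B and the MFSD8 transporter rose most, by log2 fold changes of 1.26, 1.06 and 0.75. CLCN7, the chloride and proton exchanger of the lysosome, fell by 0.50 on the log2 scale, from 222 and 254 CPM to 166 and 169 CPM. MFSD8 and SLC11A1 were not called with limma on log2(FPKM + 1), nor MFSD8 and CLCN7 on log2(FPKM + 0.1).

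The V-ATPase subunits lay mainly on the lower side. Of 20 tested 1 was higher and 7 were lower (5% and 35%, beside 21.6% and 19.1% of all genes), with a median log2 fold change of -0.20, and the count of lower subunits was 4 with upper quartile scaling, 10 without vector library 1, 3 without JMJD3 library 1 and 1 without JMJD3 library 2. Lower subunits also numbered 4 with limma on log2(FPKM + 1), with no filter on low counts and with the replicate block. They numbered 1, beside 1 higher, with limma on log2(FPKM + 0.1). ATP6V0C, which forms most of the proton-carrying ring, was at 364 and 404 CPM in the vector libraries and at 248 and 230 CPM in the JMJD3 libraries, and fell by 0.68 on the log2 scale (standard error 0.09). It shares 76.3% of its exon bases with genes on the same strand, 60.9% with a single one of them, and was not summed with them. ATP6V0D1 and ATP6V0B fell by 0.54 and 0.52 on the log2 scale, while ATP6V1G2, at most at 1.94 CPM, rose by 0.89. ATP6V0D1 and ATP6V0B lost their calls with limma on log2(FPKM + 0.1) and without JMJD3 library 2, and ATP6V1G2 with the DESeq2 Wald test and without either JMJD3 library. The summed level of the 25 listed subunits was 1911 and 2050 CPM in the vector libraries and 1622 and 1565 CPM in the JMJD3 libraries, with both JMJD3 libraries lower.

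Of 24 genes for mannose 6-phosphate tagging and sorting, 3 were higher and 5 lower (12.5% and 20.8%, against 21.6% and 19.1% of all genes), and the lower ones were 11 and 10 without vector libraries 1 and 2, and 2 without either JMJD3 library. CLN6, a protein of the endoplasmic reticulum that helps hydrolases to leave it, and NAGPA, the enzyme that uncovers the mannose 6-phosphate tag, fell by 1.02 and 0.98 on the log2 scale. CLN6 went from 170 and 191 CPM to 89.3 and 88.8 CPM, with the libraries of each group close together. SORL1 and AP1S2, a sorting receptor and an adaptor subunit, rose by 0.84 and 0.83, the former not called with limma on log2(FPKM + 0.1) or with no filter on low counts, the latter called in all 14 alternative fits. Of 17 genes of late endosome and lysosome fusion, 1 was higher and 3 were lower (5.88% and 17.6%), where the lower ones were 7 and 5 without vector libraries 1 and 2 and 0 without either JMJD3 library. The GTPase RAB7A, from 583 and 563 CPM to 484 and 479 CPM, fell by 0.25 on the log2 scale, a call that was lost in 7 of the 14 alternative fits.

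Of 29 genes around mTORC1 and the control of MiT/TFE factors, 0 were higher and 7 lower by edgeR's quasi-likelihood test, with a median log2 fold change of -0.11. The 7 are 24.1% of those tested, beside 19.1% lower among all genes, of which 21.6% were higher, and they were 10 without vector library 1, 4 without JMJD3 library 1 and with no filter on low counts, and 3 without JMJD3 library 2. At an unadjusted p under 0.05 there were likewise 0 higher, as there were after adjustment with the DESeq2 Wald test and limma, but 3 were higher without vector library 1. SESN3, which restrains mTORC1, and AKT1S1 and MLST8, which are part of it, fell by 1.05, 0.93 and 0.71 on the log2 scale. MLST8 was at 185 and 218 CPM against 125 and 121 CPM, without overlap, and these 3 genes kept their calls in all 14 alternative fits. Of 35 autophagy genes, 4 were higher and 3 lower (11.4% and 8.57%), with a median of 0.05, but 9 and 9 without vector library 1 and 1 and 1 without JMJD3 library 2. STX17, a SNARE of autophagosomes, rose by a log2 fold change of 0.87, and the protease ATG4D fell by 0.68, neither of them called with limma on log2(FPKM + 0.1). Over all 13 companion lists, those of granule proteins, cystatins and cell type markers described further on included, 34 of 202 genes tested were higher and 39 lower (16.8% and 19.3%, beside 21.6% and 19.1% of all genes), with a median log2 fold change of -0.03.

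**Figure D5:**
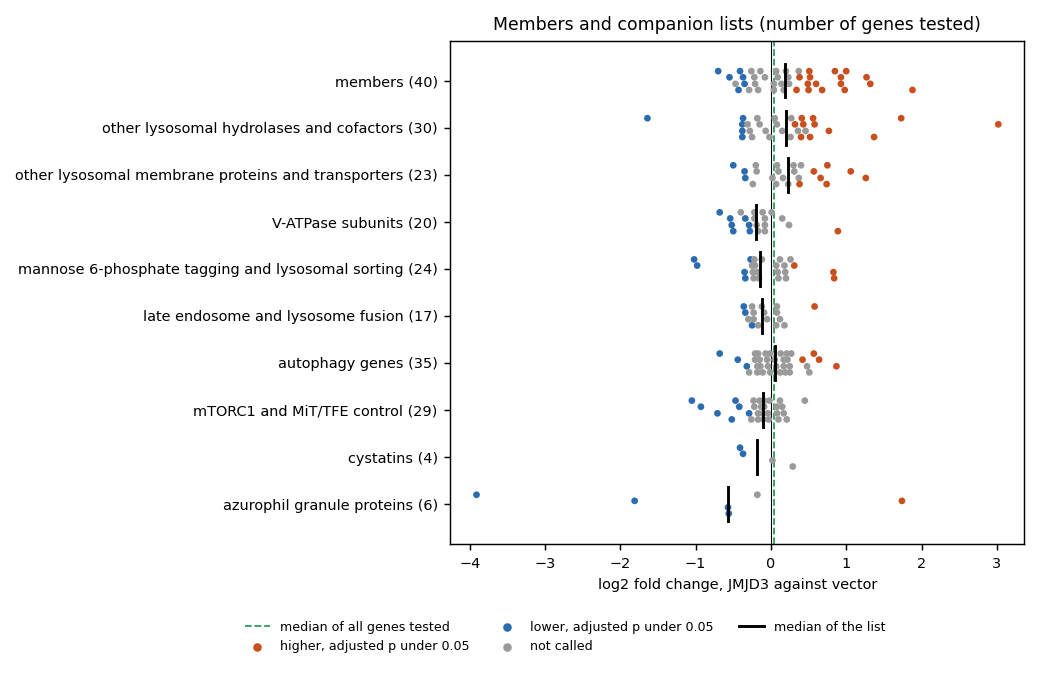
Log2 fold change of each tested gene of the members and of 9 companion lists, with the number of genes tested in brackets. Orange and blue points mark a rise or a fall with an adjusted p under 0.05 by edgeR's quasi-likelihood test, black bars list medians and the dashed line the median of all genes tested, 0.04. The median is 0.19 for the members and -0.20 for the V-ATPase subunits.

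The cystatins inhibit papain-like cathepsins. Of 4 tested, 2 were lower and 0 higher, beside 19.1% and 21.6% of all genes tested. CST3 and CSTB fell by 0.41 and 0.37 on the log2 scale, and CST7 and CSTA were not called, at 0.29 and 0.02. The call of CST3 was lost in 7 and that of CSTB in 3 of the 14 alternative fits, both of them without either JMJD3 library. The azurophil granule proteins, which reach their granule by routes shared in part with lysosomal enzymes, had 4 genes lower and 1 higher of 6 tested, beside 19.1% and 21.6% of all genes. CTSG went from 145 and 164 CPM to 11 and 9.61 CPM, and fell by 3.91 on the log2 scale. PRTN3, MPO and AZU1 fell by 1.81, 0.57 and 0.56. The call of AZU1 was lost in 3 of the 14 alternative fits, with limma on either FPKM scale and with no filter on low counts. Of the 6 tested 1 was not called, and 5 had log2 fold changes below 0. ELANE was at 1 to 13 counts and was not tested. BPI rose from 6 and 2 counts to 14 and 13, a call that was lost in 7 of the 13 alternative fits that tested it. The summed level of the 7 granule genes was 16546 and 17336 CPM in the vector libraries and 10421 and 10384 CPM in the JMJD3 libraries. Of the 4 libraries together MPO made up 85.6%, with 13876 and 14110 CPM in vector and 9379 and 9421 CPM in JMJD3 libraries.

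Markers of cell types were described by the same fit. The 8 promyelocyte markers summed to 17552 and 18393 CPM in the vector libraries and to 11705 and 11675 CPM in the JMJD3 libraries. MPO was the most abundant. Of 7 tested 4 were lower and 2 higher (57.1% and 28.6%), beside 19.1% and 21.6% of all genes tested. The 4 lower ones, MPO, PRTN3, AZU1 and CTSG, are those of the granule list above and so are no second observation. CD33 and ANPEP were higher, calls that were lost in 8 and 4 of the 14 alternative fits. CSF3R was not called, at a log2 fold change of 0.26. The 14 monocyte and macrophage markers summed to 32.2 and 29.8 CPM against 42 and 40.4 CPM, with FCGR1A the most abundant. Of 7 tested, CSF1R alone was called, so that 14.3% were higher and 0% lower, beside 21.6% and 19.1% of all genes tested. The log2 fold changes of the 7 ran from -0.92 to 1.56, with 5 above 0 and 2 below. CSF1R rose from 4.94 and 3.85 CPM to 12.9 CPM in both JMJD3 libraries. C1QB and TREM2 had 0 counts in every library, and MRC1, MSR1, CD163 and MARCO at most 2. The 7 lymphocyte markers summed to 14.1 and 16.8 CPM against 28.6 and 27.0 CPM, where CD79A was the most abundant. Of 3 tested CD2 and CD79A rose, or 66.7%, beside 21.6% of all genes tested. The other gene tested was not called, at a log2 fold change of -0.34. MS4A1 was at 0 and CD3E at 2 counts or fewer. Of the 8 erythroid and megakaryocyte markers 7 had 0 counts in every library, and ITGA2B made up the sum, 0.594 and 0.655 CPM against 1.76 and 1.62 CPM. The part of these shifts in the levels of the lysosomal genes was not tested.

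Vector library 1 alone came from lane 20. Without it, within lane 17, 1 vector library is left, so that the spread came from the 2 JMJD3 libraries alone, and for CTSD the standard error went from 0.09 to 0.05. In that fit all 22 called members passed the threshold and 7 more did, CTSD, CTSH, GLB1, HEXA, PPT1, LAMP2 and MCOLN1, for 17 higher and 12 lower, which is no test of the lane. Without vector library 2 all 22 were kept, and CTSZ, GUSB, PPT1 and TFE3 were called as well. Without JMJD3 library 1 the calls of 12 members were lost, and without JMJD3 library 2 those of 13. CTSS, GLA, IDUA, MANBA, NAGLU, NEU1, ASAH1, LIPA, LAMP1, CD63 and SCARB2 were lost in both cases, CD68 without the former alone, and CTSL and TFEB without the latter alone. With a single JMJD3 library the spread came from the vector libraries, so the lone library was assumed to vary as they do.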

How the data were processed

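RNA-seq values came from 1 table that holds, for each of 60662 genes and 4 libraries, an estimated count and an FPKM value deposited by the authors. Since 98.5% of the nonzero deposited estimated counts are not whole (tolerance 1e-09), they do not come from whole-read counting. The labels name CASAVA 1.8, TopHat2 2.0.4, RSEM and GRCh38, the series design BWA, ANOVA and Cufflinks, and the study's methods STAR, hg19, HTSeq-count and DESeq2, so that the upstream steps are not settled. The authors' own fold changes and p-values, in the same table, were not used. The deposited FPKM sums to between 1004715 and 1445366 per library.

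Estimated counts were rounded, filtered with filterByExpr (15246 genes kept), scaled by TMM and entered into edgeR 4.0.16 under R 4.3.3 (glmQLFit, glmQLFTest) in 1 fit of all 4 libraries without covariates. p was adjusted by Benjamini-Hochberg over all genes tested and called under 0.05. The standard error is the log2 fold change divided by the square root of F. The fits were also run on simulated counts, in which no change was smaller than 2-fold.

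Alternatives were DESeq2 1.42.0 size factors and Wald test, upper quartile scaling, limma 3.58.1 on log2-transformed FPKM with 1 or 0.1 added, no filter, at least 10 counts in every library, a replicate block, each library left out and a 2-fold limit. A crossed block and sums over overlapping genes were chosen after seeing the data. The members and lists were chosen with earlier results of these data known. The genes named are KDM6B, all members, up to 3 rises and 3 falls per list, and the granule, cystatin and marker genes. Positions and exon overlaps are from GENCODE release 44 on GRCh37, by gene identifier (93.9% of identifiers found), since the table gives no coordinates. Protein sequences were not at hand.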

Additional observations from a re-analysis of the deposited data

How the results depend on the processing

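The 16 higher and 6 lower members became 8 and 1 with limma on log2(FPKM + 0.1) and 3 and 0 with at least 2-fold required, and lower members were 3 with no filter on low counts. Leaving out each library gave 9 to 19 higher and 0 to 12 lower members, 18 to 49 higher and 13 to 65 lower companion genes, and 1920 to 4343 higher and 1133 to 4183 lower genes overall. The members' median of 0.19 was 0.15 with DESeq2 size factors and with the Wald test, 0.22 with upper quartile scaling and with no filter, and 0.11 to 0.23 with a library left out. The calls in the companion lists, 34 higher and 39 lower, numbered 22 and 21 with limma on log2(FPKM + 1), 13 and 10 on log2(FPKM + 0.1), and 21 lower with no filter. Those among all genes, 3292 and 2906, numbered in these fits 1950 and 1919, 1573 and 1165, and 1893 and 1776, and 1151 and 430 changed at least 2-fold. The causes of these shifts were not tested, except that without a filter 27095 genes enter the adjustment and that leaving out a library leaves 3.

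With the replicate block 15 members were higher and 5 lower, 3 calls were lost and 1 was gained. Deviations of libraries with the same number correlated at -0.252 over 15246 genes, so the numbers mark no positive pairing. With 2 libraries per group, libraries of different number have by construction the same value with the opposite sign. What lies behind it was not tested. A crossed replicate block, added after the data were seen, called 20 members higher and 10 lower. Apart from that fit and the sums over overlapping genes, 0 of the 22 called members changed sign in any alternative, and of the others ARSB, MAN2B1, MITF and PSAP did. Summed with its overlapping gene, CD68 went from 0.60 to -0.08. Genes at 0 counts were below detection at this depth.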
